A study of Rattus norvegicus with 10 samples.

Results

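Messenger RNA of cultured rat hippocampal neurons was compared between 120 min and 60 min after chemical long-term potentiation (cLTP), a bath treatment that strengthens synapses across a whole dish. The comparison rests on 4 of the 10 libraries of the series, 2 biological repeats at 120 min and 2 at 60 min, and covers all 11615 genes of the deposited table. The other libraries were 2 each of cultures taken 5 and 10 min after cLTP and of mock-treated cultures, which serve below as a baseline. All cultures came from Wistar rats, were grown to day 15 in vitro, and had received fluorodeoxyuridine and uridine on day 4 to hold back glial growth. At both times the cultures had received the cLTP solution, so that 120 min and 60 min cultures differ by the time since treatment. The mock cultures received a mock solution, and the labels state neither when they were taken nor what the cLTP solution contained.

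The 120 min, 60 min and mock libraries held from 36585716 to 41800477 reads each, as the steps between the deposited values show. Values are CPM, the count of a gene scaled to the depth of its library, after trimmed-mean (TMM) scaling, and all folds and log2 differences are on the log2(CPM + 1) scale, where those of low genes come out too small. The log2 difference between the 2 repeats had an SD over all genes of 0.113 at 120 min and 0.113 at 60 min. The neuron label was set against marker genes. All but 2 of the 22 excitatory neuron markers looked for were measured, and so were all 15 astrocyte markers and all 16 microglial markers, so the cultures held glial RNA as well. The summed level of the astrocyte markers was 27799 and 26341 CPM at 120 min and 26309 and 25906 CPM at 60 min, and that of the excitatory neuron markers was 3302 and 3397 CPM at 120 min and 4099.6 and 3908 CPM at 60 min. In such bulk samples, fewer cells of a type and less RNA per cell cannot be told apart.

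Stimulated neurons and glia answer in waves. Immediate-early genes need no newly made protein, since the factors that switch them on, CREB at CRE elements, SRF at serum response elements and NF-kB, are already present in the cell. Many of their products are transcription factors such as FOS and EGR1, and others are inhibitors that end the signal that induced them. Genes of the second wave need those products and include secreted signals, receptors, proteases, and cytoskeletal and synaptic proteins. Immediate-early transcripts are commonly short-lived, so their level tracks ongoing transcription closely.

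At 120 min the steepest falls included those of Nfkbiz, Btg2, Irf1, Nr4a1 and Fos, genes of immediate-early regulators, and the steepest rises included those of the cytokine gene Clcf1, the NF-kB gene Nfkb1, the integrin gene Itga5 and the GTPase gene Gbp2. At an adjusted p under 0.05 (limma, Benjamini-Hochberg over the 11615 genes), 2296 genes were higher at 120 min than at 60 min (19.8% of those tested) and 1864 were lower (16.0%). Both 120 min libraries lay above both 60 min libraries for 4210 genes (36.2%) and below them for 4105 (35.3%). Most changes were small, with a median size of 0.30 on the log2 scale among called genes. At least a 2-fold change was called for 129 higher genes (1.11%) and 43 lower genes (0.370%), and at least a 4-fold change for 9 higher and 13 lower genes. In the mean of the 2 libraries, the 43 genes together held 2255 CPM at 120 min and 7905 CPM at 60 min, and the 129 genes together held 17777 CPM at 120 min and 6463 CPM at 60 min.

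The split between directions depended on scaling: with upper-quartile factors 1963 genes were higher and 2440 lower (44.6% of called genes higher, against 55.2% with TMM factors), and with library totals alone 2013 were higher and 2295 lower (46.7%). The count of lower genes was 1207 without 60 min replicate 2, 1114 without 120 min replicate 1 and 1095 without 120 min replicate 2.

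Mock cultures place the 2 times on a common baseline. Against mock, 2367 genes were higher (20.4%) and 1960 lower (16.9%) at 120 min, and 539 were higher (4.64%) and 227 lower (1.95%) at 60 min. The comparisons of 120 min with 60 min, 120 min with mock and 60 min with mock share libraries, so values against mock are given as a description, beside single genes and some lists. List counts against mock are to be read against the shares of all genes above. Counts of list members below are to be read against the 19.8% higher and 16.0% lower of all genes between 120 min and 60 min.

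**Figure D1:**
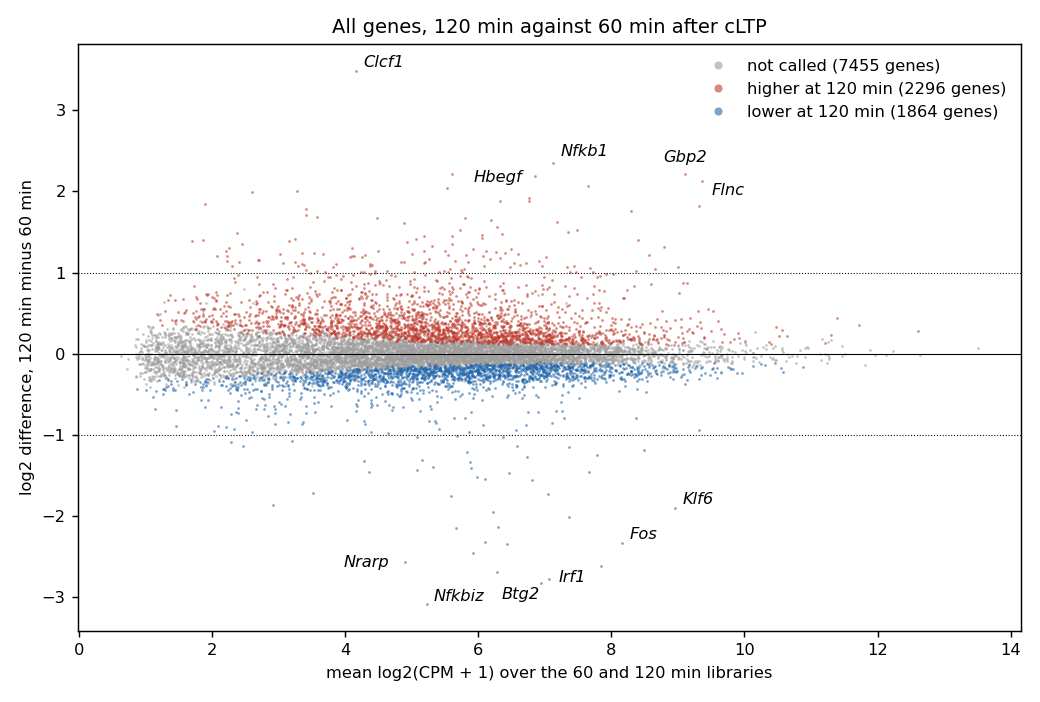
Log2 difference (120 min minus 60 min, vertical axis) of each of the 11615 genes against its mean log2(CPM + 1) over the 4 libraries (horizontal axis). Red points are the 2296 genes called higher at 120 min, blue points the 1864 called lower, grey points the 7455 not called, and dotted lines mark a 2-fold change. Clcf1 stands alone at the top at 3.49, and Nfkbiz lies at the bottom at -3.08.

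Most immediate-early transcription factors fell. Of 32 measured list members, 22 were lower at 120 min (68.8%, beside 16.0% of all genes), 6 were higher and 4 were not called, with a median log2 difference of -0.77 beside 0.00034 over all genes. The list was chosen for genes known to respond to activity, and with earlier results of these libraries known, so its direction is a description. Fos, which encodes a subunit of the AP-1 factor (rn6, chromosome 6, 109300433 to 109303299, plus strand), was at 125 and 129 CPM in the 120 min libraries, against 620.3 and 659 CPM in the 60 min libraries and 108 and 84.7 CPM in the mock libraries. Both 120 min libraries were thus far below both 60 min libraries and a little above both mock libraries. The fall was 5.01-fold (log2 difference -2.33, SE 0.15, adjusted p = 3.2e-07), and 5.63% of the rise over mock at 60 min was left at 120 min.

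Nr4a1, an orphan nuclear receptor, was at 32.3 and 27.2 CPM at 120 min, against 186 and 206 CPM at 60 min and 18.4 and 15 CPM in mock. It fell 6.43-fold (SE 0.12 log2, adjusted p = 1.7e-08) and stayed above mock. Btg2, an antiproliferative partner of the mRNA deadenylase complex, was at 45.8 and 44.9 CPM at 120 min, against 301 and 357 CPM at 60 min and 60.4 and 52.3 CPM in mock. Its 7.09-fold fall (adjusted p = 1.5e-09) took both libraries below both mock libraries. Zfp36, whose protein tristetraprolin destabilises AU-rich mRNAs, was at 37.2 and 35.8 CPM at 120 min, against 151 and 179 CPM at 60 min, a 4.4-fold fall (adjusted p = 7.2e-07) that left 3.41% of its rise. Klf6, a zinc-finger transcription factor, was at 262 and 250.5 CPM at 120 min, against 942 and 973 CPM at 60 min (3.73-fold, adjusted p = 2.6e-10).

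Egr1, a zinc-finger factor of synaptic plasticity, was at 63.9 and 64.2 CPM at 120 min, against 181 and 200.2 CPM at 60 min (2.94-fold lower, adjusted p = 2.9e-08), with 20.2% of its rise left. Npas4, a factor that responds to calcium entry in neurons, was at 21 and 24.6 CPM at 120 min, against 49 and 45.3 CPM at 60 min (2.03-fold lower, adjusted p = 0.00011), with 37.9% left. The AP-1 genes Junb and Jun fell 2.75-fold and 2.28-fold (adjusted p = 1.1e-08 and 7.4e-08). Falls of 4.41-fold, 3.87-fold and 3.3-fold were those of Csrnp1, Ier2 and the circadian repressor Bhlhe40 (adjusted p = 2.7e-09, 2e-08 and 3.4e-09).

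The members of the same list that rose were Fosl1, Crem, Klf10, Ier5 and, named after their values were seen, Maff and Fosl2. Fosl1, which encodes the AP-1 subunit FRA1, was at 128 and 128 CPM at 120 min, against 53.3 and 54.1 CPM at 60 min and 7.06 and 5.69 CPM in mock. It rose 2.36-fold (SE 0.1 log2, adjusted p = 3.5e-06), and 38.8% of its gain over mock at 120 min was present at 60 min. Crem, a CRE-binding factor with repressor isoforms, was at 74.1 and 74.6 CPM at 120 min, against 44.7 and 42.4 CPM at 60 min (1.69-fold, adjusted p = 3.5e-06). So the AP-1 gene family held members of opposite direction, with Fos, Junb and Jun lower and Fosl1 higher at 120 min.

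Many feedback regulators, which damp the signals that induce them, were lower. Of 35 measured members 17 were lower (48.6%, beside 16.0% of all genes), 10 were higher (28.6%, beside 19.8%) and 8 were not called (median -0.12). Genes of IkB proteins, which bind NF-kB, were among the lower ones. Nfkbiz, a nuclear IkB protein (rn6, chromosome 11, 47243342 to 47271487, plus strand), was at 12.5 and 11.2 CPM at 120 min, against 101 and 116 CPM at 60 min and 20.3 and 19.6 CPM in mock. Its 8.48-fold fall (log2 difference -3.08, SE 0.076, adjusted p = 1.7e-10) was the largest of all genes tested, and the 120 min libraries lay below the mock libraries (-0.71 log2, adjusted p = 2.2e-05).

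Nfkbia, the classic cytoplasmic inhibitor IkB-alpha, was at 97 and 86.7 CPM at 120 min, against 555 and 583 CPM at 60 min and 126 and 115 CPM in mock. It fell 6.15-fold (adjusted p = 1.7e-10) and likewise to below mock (-0.39 log2, adjusted p = 0.00047). Socs3, an inhibitor of the JAK kinases bound to gp130 receptors, was at 26.3 and 23.4 CPM at 120 min, against 139 and 141 CPM at 60 min (5.47-fold lower, adjusted p = 3.1e-08), and 10.9% of its rise was left. Nrarp, an inhibitor of Notch signalling, was at 12.7 and 10 CPM at 120 min, against 70.9 and 72 CPM at 60 min and 0.94 and 1.13 CPM in mock, a 5.91-fold fall (adjusted p = 1.8e-08). Zc3h12a, an RNase for inflammatory mRNAs, Sik1, a kinase that restrains CREB coactivators, and Dusp1, a MAP kinase phosphatase, fell 2.75-fold, 2.69-fold and 2.65-fold (adjusted p = 4.6e-07, 3.1e-07 and 4.1e-05).

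Other feedback genes rose. Dusp5, a nuclear phosphatase of ERK, was at 72.5 and 72.5 CPM at 120 min, against 35.1 and 38.7 CPM at 60 min (1.94-fold, adjusted p = 7.1e-06). Nab2, a corepressor of EGR factors, was at 77.4 and 78.6 CPM at 120 min, against 40.9 and 38.7 CPM at 60 min (1.94-fold, adjusted p = 5.8e-08), and the 60 min level lay close to the 38.7 and 38.8 CPM of mock. Tob2 and Dusp14 rose 1.69-fold and 1.41-fold (adjusted p = 7.4e-06 and 7.7e-05).

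Besides Nfkbiz, Btg2 and Nfkbia, the fall took Ppp1r3c, a subunit that targets a phosphatase to glycogen, and Id2, an inhibitor of helix-loop-helix factors, below mock. Ppp1r3c was at 55.2 and 49.3 CPM at 120 min, against 143 and 149 CPM at 60 min and 79.3 and 90.9 CPM in mock (adjusted p of 120 min against mock = 1.5e-05). Id2 was at 68 and 59.9 CPM at 120 min, against 135 and 148 CPM at 60 min and 107 and 103 CPM in mock (adjusted p of 120 min against mock = 3.4e-06).

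The promoters of 4 genes that fell are shown (RefSeq, assembly GRCr8, the 250 bases before the start). They hold matches to elements through which immediate-early genes are known to be switched on. Capitals mark the CRE in Btg2 (chr13:48087691-48087940, minus strand) and a match to the CArG box of serum response elements in Zfp36 (chr1:92799109-92799358, minus strand). They also mark an NF-kB motif in Nfkbia (chr6:78597073-78597322, minus strand), and a CRE followed by a TATA box in Ppp1r15a (chr1:105139597-105139846, minus strand). Each is read 5′ to 3′ on the gene's strand and ends just before the start.
Btg2: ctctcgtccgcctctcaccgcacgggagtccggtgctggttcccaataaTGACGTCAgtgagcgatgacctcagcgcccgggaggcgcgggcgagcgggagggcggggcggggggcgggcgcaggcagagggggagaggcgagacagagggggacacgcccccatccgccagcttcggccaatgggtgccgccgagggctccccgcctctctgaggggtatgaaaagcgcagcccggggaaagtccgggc
Zfp36: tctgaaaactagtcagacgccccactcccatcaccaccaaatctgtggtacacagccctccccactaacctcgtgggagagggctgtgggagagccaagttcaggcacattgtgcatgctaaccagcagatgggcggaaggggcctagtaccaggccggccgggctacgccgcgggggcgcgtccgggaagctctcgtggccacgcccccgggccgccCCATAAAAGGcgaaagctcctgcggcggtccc
Nfkbia: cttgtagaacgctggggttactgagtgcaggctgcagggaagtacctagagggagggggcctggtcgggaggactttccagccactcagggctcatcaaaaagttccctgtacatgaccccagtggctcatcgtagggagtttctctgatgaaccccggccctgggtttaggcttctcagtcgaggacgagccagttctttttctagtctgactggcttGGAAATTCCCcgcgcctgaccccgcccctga
Ppp1r15a: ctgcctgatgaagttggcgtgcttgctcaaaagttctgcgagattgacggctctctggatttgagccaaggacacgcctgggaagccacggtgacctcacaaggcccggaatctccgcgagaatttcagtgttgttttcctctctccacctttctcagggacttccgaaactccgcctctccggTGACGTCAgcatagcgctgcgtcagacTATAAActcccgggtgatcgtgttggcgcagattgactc

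**Figure D2:**
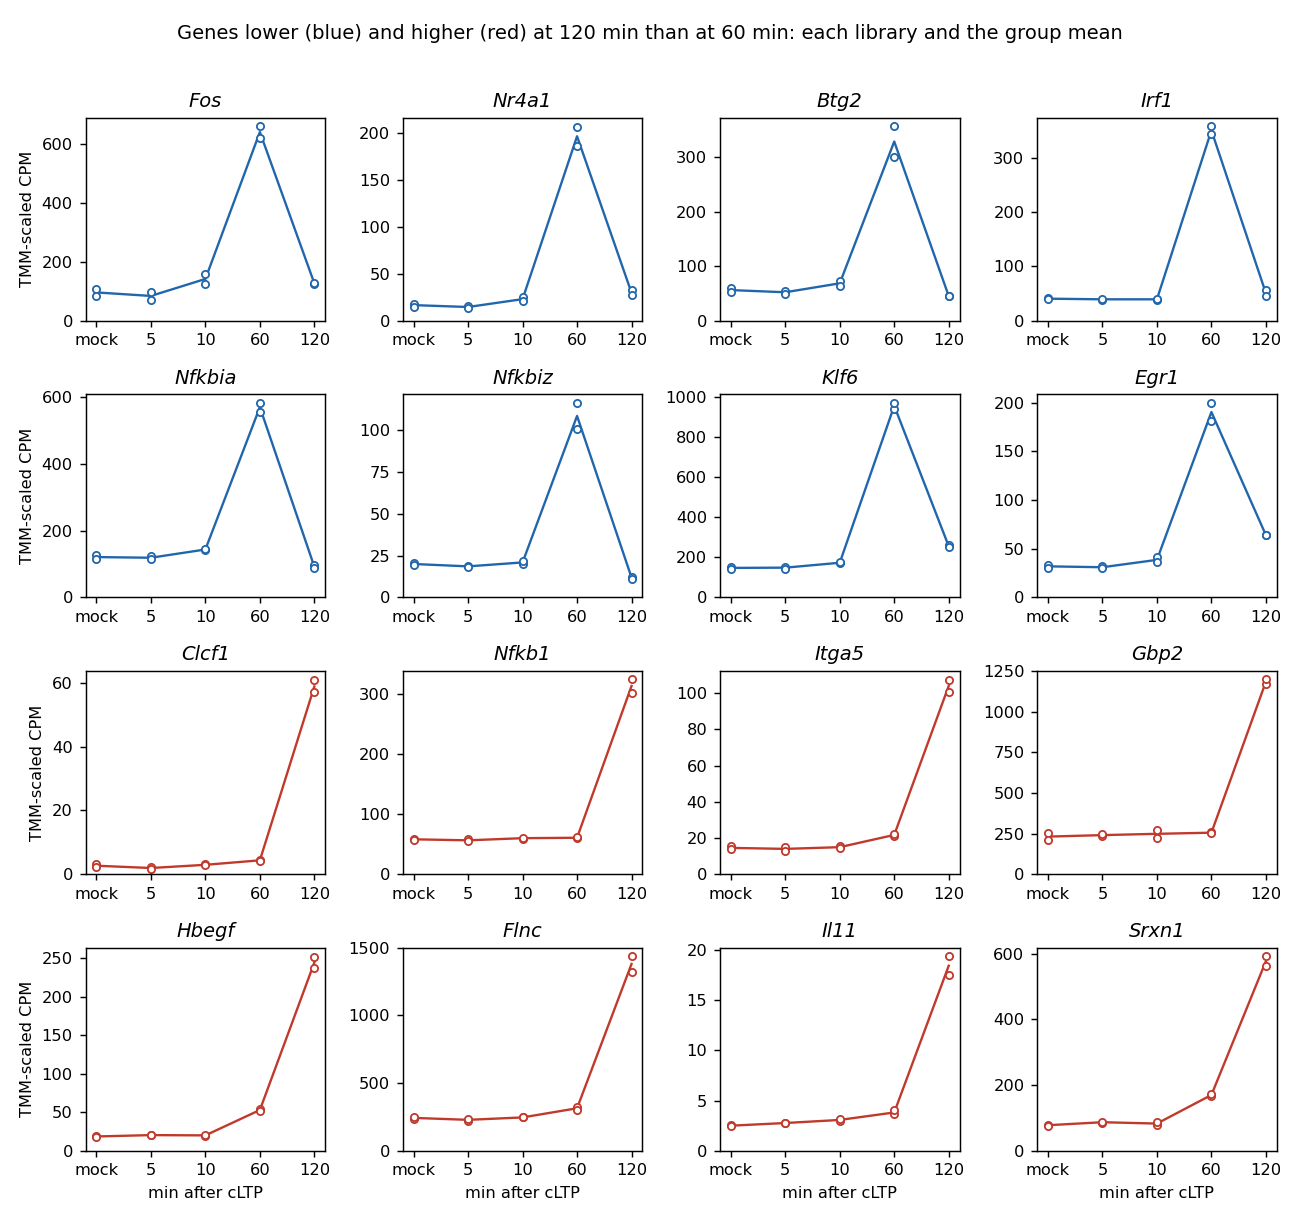
TMM-scaled CPM (vertical axis, from 0) of 8 genes lower and 8 genes higher at 120 min than at 60 min, in mock cultures and at 5, 10, 60 and 120 min after cLTP (horizontal axis, not to scale). Circles are libraries and lines join the means of the 2 libraries of each group. Fos, Nr4a1, Btg2, Irf1, Nfkbia, Nfkbiz, Klf6 and Egr1 peak at 60 min, while Clcf1, Nfkb1, Itga5, Gbp2, Hbegf, Flnc, Il11 and Srxn1 are highest at 120 min.

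The largest rise was that of a cytokine gene whose product acts through gp130, the shared receptor of the interleukin-6 family. Clcf1, a cytokine of this family that binds the CNTF receptor (rn6, chromosome 1, 219468866 to 219472445, plus strand), was at 57.1 and 60.9 CPM at 120 min, against 4.4 and 4.28 CPM at 60 min and 3.17 and 2.12 CPM in mock. Both 120 min libraries were more than 10 times as high as either 60 min library. The rise was 11.2-fold (log2 difference 3.49, SE 0.13, adjusted p = 4.9e-09), and 3.01% of the gain over mock had been reached at 60 min. Il11, another cytokine of the family, was at 17.5 and 19.4 CPM at 120 min, against 3.62 and 4.01 CPM at 60 min (4.03-fold, adjusted p = 2e-08).

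The receptor genes Il6r and Osmr rose as well. Il6r was at 59.5 and 59.1 CPM at 120 min, against 20.5 and 21.5 CPM at 60 min (2.74-fold, adjusted p = 1.8e-08), and Osmr at 119 and 119.8 CPM at 120 min, against 52.6 and 51.7 CPM at 60 min (2.27-fold, adjusted p = 2.7e-08). Of 21 measured genes of the pathway 11 were higher, 3 were lower and 7 were not called (median 0.22). The lower ones were the inhibitors Socs3 and Socs1 and the LIF receptor gene Lifr, which was at 15.9 and 15.9 CPM at 120 min, against 19.1 and 20.8 CPM at 60 min (adjusted p = 0.0063, and 0.060 without 60 min replicate 2). Both ligands described here were higher at 120 min, and the receptor genes were divided.

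Among NF-kB genes 3 subunit genes were higher, while the IkB genes Nfkbia and Nfkbiz described above were lower. Regulators of NF-kB did not all fall, since Tnip2 was higher, with log2 differences of 0.49 to 0.69 over the 23 alternatives. Nfkb1, which encodes the p105 precursor of the p50 subunit (rn6, chromosome 2, 240773520 to 240890053, minus strand), was at 325 and 302 CPM at 120 min, against 59.8 and 61.4 CPM at 60 min and 58.6 and 57.5 CPM in mock. It rose 5.1-fold (SE 0.051 log2, adjusted p = 1.7e-10), and 1.01% of its gain over mock at 120 min was present at 60 min. Rela, the transactivating subunit, was at 99.8 and 97.1 CPM at 120 min, against 77.2 and 78.6 CPM at 60 min and 45.8 and 45.4 CPM in mock (1.26-fold over 60 min, adjusted p = 0.00014). Over the whole list 6 of 18 members were higher (33.3%, beside 19.8% of all genes) and 4 lower (22.2%, beside 16.0%; median 0.07). The lower ones were Nfkbiz, Nfkbia, Birc3 and Bcl3, and with library totals or upper-quartile factors 7 were lower.

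Secreted inflammatory genes also split. Of 17 chemokines, cytokines and adhesion molecules 9 were higher and 4 lower (median 0.23). Cxcl1, a chemokine for neutrophils, was at 27 and 32.6 CPM at 120 min, against 145 and 159 CPM at 60 min (4.98-fold lower, adjusted p = 1.1e-06), whereas Ccl7, a chemokine for monocytes, was at 172 and 205 CPM at 120 min, against 103 and 95.8 CPM at 60 min (1.88-fold higher, adjusted p = 0.00014). Ptx3, a secreted pattern-recognition protein, was at 295 and 311 CPM at 120 min, against 105 and 105 CPM at 60 min and 14 and 11.9 CPM in mock (2.87-fold over 60 min, adjusted p = 4e-07). Both 120 min libraries of Ptx3 lay above both 60 min libraries, which lay above mock.

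Several growth factor genes and their receptors were higher at 120 min. Hbegf, a ligand of the EGF receptor, was at 237 and 252 CPM at 120 min, against 54 and 52 CPM at 60 min and 19.3 and 17.9 CPM in mock (4.55-fold over 60 min, SE 0.058 log2, adjusted p = 2.6e-10). The receptors Egfr and Erbb2 rose 1.47-fold and 1.47-fold (adjusted p = 9.8e-05 and 4.2e-05), and Fgf2 rose 1.57-fold (adjusted p = 1.3e-05). The related receptor gene Erbb4 fell 1.28-fold (adjusted p = 0.019), a call lost under 4 of the 23 alternatives. Of 22 measured growth factors and receptors 11 were higher (50%, beside 19.8% of all genes) and 5 lower (median 0.28), with Gdf15, a stress-induced ligand, and Bmp2 falling 2.5-fold and 1.57-fold (adjusted p = 2.8e-07 and 0.00077).

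Itga5, the alpha subunit of the fibronectin receptor, was at 100.5 and 107 CPM at 120 min, against 21.1 and 22.2 CPM at 60 min and 15.3 and 13.7 CPM in mock. It rose 4.63-fold (SE 0.084 log2, adjusted p = 5.5e-09). Flnc, an actin cross-linker, was at 1322 and 1439.8 CPM at 120 min, against 325 and 304 CPM at 60 min and 233 and 253 CPM in mock, a 4.38-fold rise (adjusted p = 3.6e-10). Rnd3, an atypical small GTPase that loosens stress fibres, was at 422 and 396 CPM at 120 min, against 96.7 and 96.7 CPM at 60 min (4.19-fold, adjusted p = 1.7e-10). By contrast Rhob, a small GTPase of the immediate-early class, was at 466 and 457 CPM at 120 min, against 913 and 854 CPM at 60 min (1.91-fold lower, adjusted p = 3e-08).

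Of 20 measured matrix proteins and integrins 11 were higher, 0 were lower and 9 were not called (median 0.26). Against mock, 2 of the 20 were higher and 7 lower at 60 min, and 8 were higher and 4 lower at 120 min. The list median against mock was -0.14 at 60 min and 0.13 at 120 min, so part of the difference was a return from below mock. Cd44, the hyaluronan receptor, was at 714 and 687 CPM at 120 min, against 280.1 and 279.9 CPM at 60 min (2.5-fold, adjusted p = 1.1e-09). Tnc, the matrix protein tenascin-C, was at 535 and 618 CPM at 120 min, against 251 and 240.4 CPM at 60 min and 248 and 246 CPM in mock (2.33-fold over 60 min, adjusted p = 3.3e-08). Genes known as targets of SRF and YAP numbered 22, with 13 higher and 3 lower (median 0.27). Among them Thbs1, a matrix protein that promotes synapse formation, was at 487 and 617 CPM at 120 min, against 219 and 195 CPM at 60 min and 24.4 and 23.9 CPM in mock (2.65-fold over 60 min, adjusted p = 6.2e-07), while Cyr61, a matrix signal, was at 51.6 and 87.9 CPM at 120 min, against 154 and 176 CPM at 60 min (2.42-fold lower, adjusted p = 0.00053). The 120 min libraries of Cyr61 differed widely from each other, and both lay below the 60 min libraries.

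Extracellular proteases and their inhibitors followed, with 12 of 23 higher and 2 lower (median 0.19). Tfpi2, a Kunitz-type protease inhibitor, was at 90.3 and 87.6 CPM at 120 min, against 31.8 and 28.8 CPM at 60 min and 0.537 and 1.05 CPM in mock (2.88-fold over 60 min, adjusted p = 1.2e-05). Timp1, an inhibitor of matrix metalloproteases, rose 1.93-fold (adjusted p = 6.2e-07) and Adamts9 rose 2.39-fold (adjusted p = 2.4e-08). Adamts1, a metalloprotease of the same family as Adamts9, was at 147 and 136 CPM at 120 min, against 338 and 334 CPM at 60 min and 21.4 and 21 CPM in mock, so it fell 2.37-fold (adjusted p = 1.4e-07) while still 6.41-fold above mock.

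Interferon-responsive genes were the list with the highest median difference (0.56) of the 39 lists. Between the 2 times 17 of 24 were higher at 120 min (70.8%, beside 19.8% of all genes), 6 were not called and 1, Irf1, was lower. Against mock the list median was -0.28 at 60 min and 0.32 at 120 min. At 60 min 2 members were called higher than mock and 0 lower, and at 120 min 12 were higher and 0 lower. The mock libraries differed from each other, with summed levels of 2971 and 2368 CPM. The 60 min sums of 2917 and 2786 CPM lay between them, so whether the list was below mock at 60 min is not settled. Gbp2, an interferon-induced GTPase, was at 1168 and 1200.4 CPM at 120 min, against 256 and 254 CPM at 60 min and 254 and 208 CPM in mock (4.63-fold over 60 min, SE 0.091 log2, adjusted p = 8.8e-09). The 60 min libraries of Gbp2 did not stand apart from mock (adjusted p = 0.47). Ifih1, a cytoplasmic sensor of double-stranded RNA, was at 47 and 49.2 CPM at 120 min, against 20 and 19.9 CPM at 60 min (2.35-fold, adjusted p = 1.4e-06). Tap1 and Psmb8, which serve antigen presentation, rose 1.5-fold and 1.52-fold (adjusted p = 0.0017 and 0.00032). Irf1, a transcription factor that binds the promoters of such genes, was at 55.8 and 45.5 CPM at 120 min, against 357 and 342 CPM at 60 min and 41.3 and 40 CPM in mock, a 6.83-fold fall (SE 0.075 log2, adjusted p = 3e-10).

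The promoters of 4 genes that rose, from the same source, are shown for their AP-1, NF-kB and interferon elements. Capitals mark 2 overlapping NF-kB matches in Itga5 (chr7:136381306-136381555, minus strand), an AP-1 motif followed by an interferon-stimulated element on the opposite strand in Gbp2 (chr2:234005477-234005726, plus strand), 2 AP-1 motifs in Emp1 (chr4:169943980-169944229, plus strand), and an AP-1 motif in Il11 (chr1:78098372-78098621, plus strand). Emp1, an epithelial membrane protein, was at 205 and 209 CPM at 120 min, against 55.8 and 55.3 CPM at 60 min (3.68-fold, adjusted p = 2e-09).
Itga5: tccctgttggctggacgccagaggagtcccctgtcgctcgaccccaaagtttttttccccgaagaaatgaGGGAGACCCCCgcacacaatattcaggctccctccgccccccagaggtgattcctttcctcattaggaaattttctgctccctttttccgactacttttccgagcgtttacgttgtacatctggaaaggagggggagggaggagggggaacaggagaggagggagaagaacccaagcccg
Gbp2: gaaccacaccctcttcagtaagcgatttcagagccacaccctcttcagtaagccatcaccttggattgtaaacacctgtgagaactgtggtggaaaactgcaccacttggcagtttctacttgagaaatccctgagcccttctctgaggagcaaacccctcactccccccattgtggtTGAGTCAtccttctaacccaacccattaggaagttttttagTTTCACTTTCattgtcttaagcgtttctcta
Emp1: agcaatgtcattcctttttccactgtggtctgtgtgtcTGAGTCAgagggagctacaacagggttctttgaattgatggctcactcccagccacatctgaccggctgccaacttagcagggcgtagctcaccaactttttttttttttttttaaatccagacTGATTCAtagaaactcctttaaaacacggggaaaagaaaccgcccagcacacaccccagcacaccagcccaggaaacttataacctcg
Il11: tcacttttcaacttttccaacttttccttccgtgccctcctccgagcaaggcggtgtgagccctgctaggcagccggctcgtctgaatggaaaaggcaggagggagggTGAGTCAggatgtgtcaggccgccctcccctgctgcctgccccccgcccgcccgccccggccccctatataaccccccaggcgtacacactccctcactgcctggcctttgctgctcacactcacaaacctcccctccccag

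Most genes that build ribosomes were higher at 120 min, by small amounts. Of 34 measured nucleolar factors 25 were higher (73.5%), 0 were lower and 9 were not called (median 0.29), and under the other scalings 23 to 25 were higher. Wdr43, a factor for processing of the small subunit, was at 104 and 108 CPM at 120 min, against 59.2 and 58.3 CPM at 60 min (1.79-fold, adjusted p = 5.6e-08). Ddx21, a nucleolar helicase, was at 181 and 185 CPM at 120 min, against 123 and 127 CPM at 60 min (1.46-fold, adjusted p = 1.6e-06). Translation initiation factors and tRNA synthetases numbered 30, with 18 higher and 0 lower (median 0.16), with Eif1a at 138 and 143 CPM at 120 min, against 77.3 and 77.8 CPM at 60 min (1.8-fold, adjusted p = 7.7e-08), and the cap-binding protein gene Eif4e 1.27-fold higher (adjusted p = 4.1e-05). The ribosomal protein genes themselves moved little: 5 of 50 were called higher and 0 lower (median 0.09), and 0 were higher with library totals or upper-quartile factors. Ribosomal protein genes have many processed copies in the genome, and the sources used here do not say how reads that match several places were counted.

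Among effector genes of active neurons more were higher than lower, and most were not called. Of 42 measured members 15 were higher (35.7%, beside 19.8% of all genes), 5 lower (11.9%, beside 16.0%) and 22 not called (median 0.13). With library totals or upper-quartile factors 7 were lower. Arc, a cytoskeletal protein of active synapses, was at 73.9 and 74.2 CPM at 120 min, against 80.2 and 74.5 CPM at 60 min and 30.4 and 27.6 CPM in mock. Its difference between the times was -0.06 log2 (SE 0.063, adjusted p = 0.48), so it did not pass the test, and the groups lay close together. Nptx2, a pentraxin that clusters AMPA receptors, was at 74 and 95.7 CPM at 120 min, against 41.2 and 34.9 CPM at 60 min and 27.5 and 33.1 CPM in mock (2.19-fold over 60 min, adjusted p = 2.5e-05). Bdnf, the neurotrophin, was at 150.01 and 198 CPM at 120 min, against 129 and 122 CPM at 60 min (1.37-fold, adjusted p = 0.0039), and Homer1, a postsynaptic scaffold with an activity-induced short form, at 113 and 120.2 CPM at 120 min, against 83.9 and 95 CPM at 60 min (1.3-fold, adjusted p = 0.0005).

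Baz1a, a subunit of ISWI chromatin remodellers, was at 90.6 and 95.6 CPM at 120 min, against 22.2 and 21.5 CPM at 60 min and 21.9 and 19.9 CPM in mock (4.12-fold over 60 min, adjusted p = 1.5e-09). Plk2, a kinase that trims synapses after activity, was at 379.5 and 414 CPM at 120 min, against 235 and 222 CPM at 60 min (1.73-fold, adjusted p = 6.2e-07). In the other direction, Gadd45g and Gadd45b, stress sensors linked to DNA demethylation, fell 5.06-fold and 1.64-fold (adjusted p = 7.9e-09 and 7e-06). Gadd45g was at 37.6 and 37 CPM at 120 min, against 193 and 193 CPM at 60 min.

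Some named genes that rose were below mock at 60 min, among them Axin2, Zic5, Zic2, Txnip, Erbb2, Bak1 and Arrdc4. Axin2, a feedback inhibitor of Wnt signalling, was at 32 and 33.1 CPM at 120 min, against 18.2 and 17.5 CPM at 60 min and 30.7 and 30.8 CPM in mock. It rose 1.78-fold from the 60 min level (adjusted p = 6.7e-06), and at 120 min it did not pass the test against mock (adjusted p = 0.43). Zic5 and Zic2, zinc-finger factors of neural progenitors, rose 2.36-fold and 1.86-fold (adjusted p = 3.6e-06 and 1.9e-05), and Zic5 was at 17.6 and 15.9 CPM at 120 min, against 6.79 and 6.22 CPM at 60 min and 12.5 and 12.8 CPM in mock. Txnip, an inhibitor of thioredoxin and of glucose uptake, was at 289 and 257 CPM at 120 min, against 187 and 189 CPM at 60 min and 323 and 342 CPM in mock (1.45-fold over 60 min, adjusted p = 1.5e-05), so its recovery was partial.

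Of 15 Krüppel-like and SP factors 7 were lower and 4 higher (median -0.17): beside Klf6, Klf4 fell 2.02-fold (adjusted p = 1.9e-07), while Klf5 was at 38.2 and 38.9 CPM at 120 min, against 11.4 and 11.4 CPM at 60 min (3.19-fold, adjusted p = 1.4e-07). Of 18 clock genes 7 were lower and 5 higher (median -0.16). Per1, the light- and activity-induced period gene, was at 101 and 102 CPM at 120 min, against 189 and 180.4 CPM at 60 min (1.81-fold lower, adjusted p = 3e-07), whereas Arntl, the partner of CLOCK, was at 75.5 and 83.1 CPM at 120 min, against 41.9 and 39.3 CPM at 60 min (1.93-fold, adjusted p = 3.2e-07), and Cry1 rose 1.7-fold (adjusted p = 7.4e-06). Of 24 zinc-finger repressors and ZIC genes 9 were higher and 2 lower (median 0.10), and of 28 feedback genes of Notch, Wnt and BMP signalling 8 were higher and 7 lower (median -0.07), with Hey2 rising 2.3-fold and Hes1 falling 1.75-fold (adjusted p = 4.8e-06 and 1.3e-05). Of 23 histone and DNA modifying enzymes 9 were higher and 5 lower (median 0.07). Kdm6b, a demethylase of the repressive H3K27 mark, was at 28.2 and 27.3 CPM at 120 min, against 49.6 and 50.1 CPM at 60 min (1.77-fold lower, adjusted p = 7.2e-05), and Dot1l, a methylase of H3K79, was at 64.4 and 61 CPM at 120 min, against 34.7 and 33 CPM at 60 min (1.83-fold, adjusted p = 6.4e-05).

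Of 29 oxidative stress genes 13 were higher (44.8%, beside 19.8% of all genes) and 1 lower (median 0.14). Srxn1, which repairs oxidised peroxiredoxins, was at 592 and 561 CPM at 120 min, against 166 and 173 CPM at 60 min and 79.1 and 76.5 CPM in mock (3.38-fold over 60 min, adjusted p = 1.3e-09). Txnrd1, thioredoxin reductase, and Hmox1, haem oxygenase, rose 2.02-fold and 1.79-fold (adjusted p = 4.3e-09 and 1.1e-06). The 27 measured heat shock proteins and cochaperones had 9 higher (33.3%) and 1 lower members (median 0.08), and 7 higher with library totals or upper-quartile factors. Among the higher ones were the small heat shock genes Hspb8 and Cryab and the cochaperone Bag3 with rises of 2.01-fold, 1.77-fold and 1.72-fold (adjusted p = 1.3e-07, 2.3e-06 and 3.1e-07).

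The ATF4 and unfolded protein list had 11 higher (28.9%) and 5 lower (13.2%) of 38 (median 0.03), and 8 higher with library totals or upper-quartile factors, near the 19.8% and 16.0% of all genes. Ppp1r15a, which brings a phosphatase to the translation factor eIF2-alpha, was at 108 and 110.5 CPM at 120 min, against 242 and 245 CPM at 60 min and 42.6 and 42.5 CPM in mock (2.22-fold lower than at 60 min, adjusted p = 7.4e-09). Cebpb, a leucine-zipper factor, fell 2.63-fold (adjusted p = 3e-07), and the amino acid transporter gene Slc7a1 rose 1.4-fold (adjusted p = 8.9e-05). Of 27 p53 targets and cell death regulators 7 were lower and 4 higher (median -0.04), with Gadd45a falling 1.83-fold and Phlda1 rising 2.02-fold (adjusted p = 9.5e-08 and 3.1e-07).

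Of 33 sterol and fatty acid genes 16 were higher and 3 lower (median 0.16). Msmo1, an enzyme of cholesterol synthesis, was at 591 and 565 CPM at 120 min, against 271 and 287 CPM at 60 min (2.07-fold, adjusted p = 1.8e-08), while the sterol-regulatory factor gene Srebf1 fell 1.16-fold (adjusted p = 0.0032). Hk2, a mitochondria-bound hexokinase, was at 138 and 135 CPM at 120 min, against 48.7 and 47.9 CPM at 60 min and 16.2 and 19.6 CPM in mock (2.78-fold over 60 min, adjusted p = 1.1e-07), within a glycolysis list of 9 higher and 4 lower of 24 (median 0.13). Pdp1, which activates pyruvate dehydrogenase, was at 212 and 208 CPM at 120 min, against 54.4 and 54.9 CPM at 60 min (3.79-fold, adjusted p = 2.6e-10). Slc20a1, a phosphate transporter, was at 1222 and 1187 CPM at 120 min, against 337 and 340.2 CPM at 60 min (3.55-fold, adjusted p = 1.7e-10), and Ppat, the first enzyme of purine synthesis, rose 2.82-fold (adjusted p = 1.5e-09).

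Oxidative phosphorylation subunits differed little, with 0 of 43 higher and 3 lower (median -0.05), and 7 lower with library totals. Proteasome and ubiquitin genes had 2 higher and 2 lower of 31 (median 0.03). Of 37 splicing factors and RNA-binding proteins 7 were higher (18.9%) and 8 lower (21.6%), shares near the 19.8% and 16.0% of all genes (median 0.04). Ptbp1, the splicing repressor of non-neuronal cells, was at 175 and 170.1 CPM at 120 min, against 119 and 122 CPM at 60 min (1.43-fold, adjusted p = 2.1e-05), and the neuronal factors Elavl4, Nova1 and Celf4 fell 1.26-fold, 1.25-fold and 1.23-fold (adjusted p = 0.0005, 0.0014 and 0.00089).

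**Figure D3:**
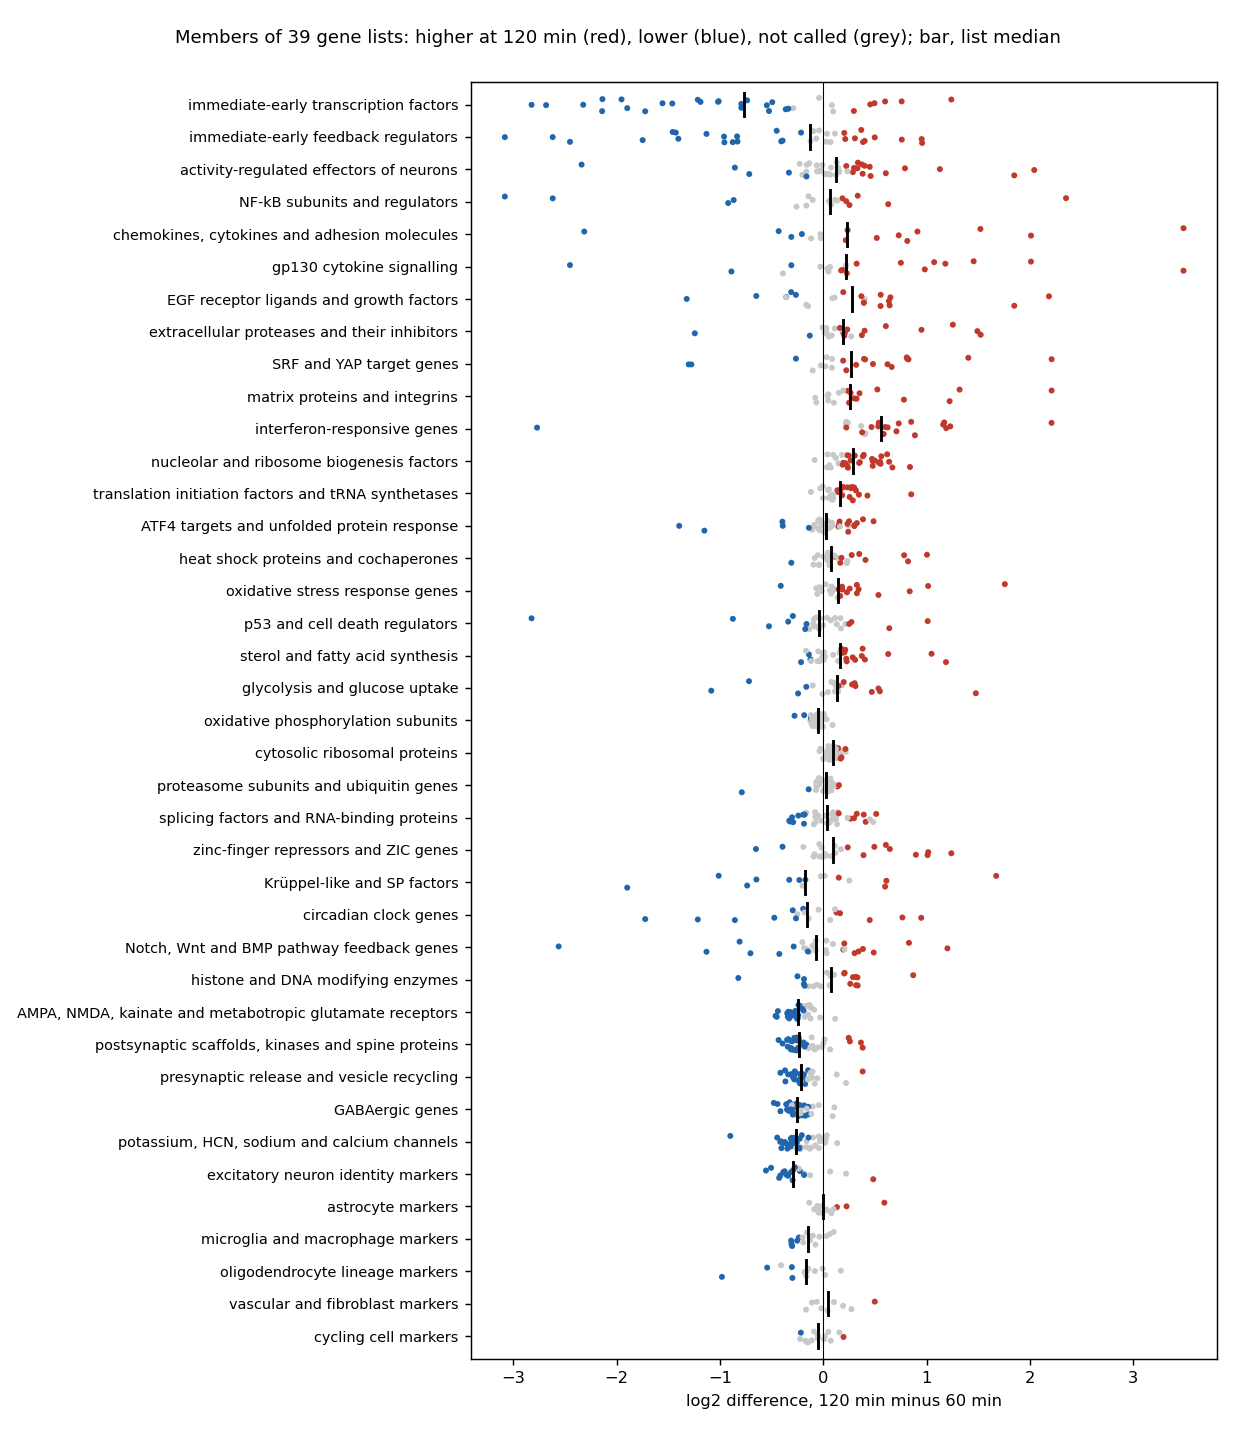
Log2 difference (120 min minus 60 min, horizontal axis) of each measured member of the 39 gene lists (rows). Each point is a gene, red if called higher at 120 min, blue if called lower and grey if not called, and the black bar is the list median. Immediate-early transcription factors lie farthest to the left with a median of -0.77, interferon-responsive genes have the highest median at 0.56, and the medians of the 5 synapse and channel lists lie between -0.26 and -0.22.

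Most genes of synapses and ion channels were lower at 120 min, mostly by small amounts. The 5 lists of glutamate receptors, postsynaptic proteins, presynaptic proteins, GABAergic genes and channels held 191 different measured genes, of which 124 were lower (64.9%, beside 16.0% of all genes), 5 were higher and 62 were not called (median -0.24). By list, 20 of 32 glutamate receptor genes, 25 of 40 postsynaptic genes, 25 of 38 presynaptic genes, 23 of 32 GABAergic genes and 31 of 49 channel genes were lower. The medians of the 5 lists lay between -0.26 and -0.22, and with the other scalings the lower counts were the same or larger by at most 3. On the log2(CPM + 1) scale none of these genes passed a 2-fold change. The largest fall was that of the potassium channel gene Kcnj2 (1.87-fold, adjusted p = 0.00013). Kcnj2 was at 2.54 and 2.24 CPM at 120 min, against 5 and 5.67 CPM at 60 min. At such low levels this scale makes the fold too small, and the CPM of Kcnj2 differ by more than 2-fold. Its log2 difference lay between -1.15 and -0.48 over the alternatives.

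Grm5, a metabotropic glutamate receptor, was at 170.2 and 172 CPM at 120 min, against 217 and 216 CPM at 60 min and 204 and 212 CPM in mock (1.26-fold lower than at 60 min, adjusted p = 0.00029). Gria4, an AMPA receptor subunit, was at 83.5 and 84.1 CPM at 120 min, against 96.6 and 106 CPM at 60 min (1.21-fold, adjusted p = 0.0013). Syn1 and Syp, proteins of synaptic vesicles, fell 1.29-fold and 1.27-fold (adjusted p = 0.00022 and 7.8e-05). Gabra5 and Gabbr2, subunits of GABA receptors, fell 1.28-fold and 1.26-fold (adjusted p = 9.5e-05 and 0.0001), and the channel genes Hcn2 and Kcnd3 fell 1.21-fold and 1.25-fold (adjusted p = 0.00057 and 0.0006). For Hcn2 the 60 min values lay close to mock, with 63.5 and 64.2 CPM at 120 min, against 78.8 and 76.7 CPM at 60 min and 74.5 and 78.4 CPM in mock. The 4 postsynaptic genes that rose were Homer1, Baiap2, Synpo and Dlg1, with differences of 0.38, 0.36, 0.26 and 0.25 log2 (adjusted p = 0.0005, 0.0005, 0.0033 and 0.01), and Dlg1 lost its call without 120 min replicate 2 or without 60 min replicate 1 (highest adjusted p = 0.12).

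Markers of cell types moved beside them. Of 20 excitatory neuron markers 14 were lower, 1 was higher and 5 were not called (median -0.29), and their summed levels given above were lower in both 120 min libraries than in both 60 min libraries. Neurod6, a factor of pyramidal neurons, was at 84.7 and 87 CPM at 120 min, against 122 and 123 CPM at 60 min (1.42-fold lower, adjusted p = 5.3e-06). Of 15 astrocyte markers 3 were higher and 0 lower (median -0.01), with Sox9 at 158 and 144 CPM at 120 min, against 95.1 and 105 CPM at 60 min (1.51-fold, adjusted p = 2.7e-05). The other higher markers, Fgfr3 and Slc1a3, lost their calls under 2 and 11 of the 23 alternatives.

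The 16 microglial markers had 5 lower (31.2%, beside 16.0% of all genes) and 0 higher members (median -0.15). Their summed level was 329 and 323 CPM at 120 min, 356 and 375 CPM at 60 min and 400 and 401 CPM in mock. Against mock the list median was -0.15 at 60 min, with 1 member called lower, and -0.33 at 120 min, with 10 called lower. The summed level was thus already below mock at 60 min. C1qa, a complement gene, was at 40 and 40.3 CPM at 120 min, against 47.9 and 52.3 CPM at 60 min (1.24-fold lower, adjusted p = 0.0053). Calls in this list were fragile: C1qa and Laptm5 lost theirs without 60 min replicate 2 (highest adjusted p = 0.057 for C1qa), C1qb without 120 min replicate 2 (0.060), and Laptm5 also without 120 min replicate 1 (highest adjusted p = 0.0996 for Laptm5). Of 13 oligodendrocyte markers 4 were lower and 0 higher (median -0.16), with Olig2 at 16.6 and 17 CPM at 120 min, against 34.4 and 34 CPM at 60 min and 18 and 15.3 CPM in mock (1.97-fold lower, adjusted p = 1.4e-06). The lower oligodendrocyte markers Mog and Mobp lost their calls under 3 and 2 of the 23 alternatives. Vascular and fibroblast markers had 1 higher and 0 lower of 9, and cycling markers 1 higher and 1 lower of 15 (medians 0.04 and -0.05). The part of these shifts in the changes of the synapse and channel genes was not tested.

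The genes that fell steeply were short. By the coordinates in the deposited table, the genomic span of the 43 genes at least 2-fold lower had a median of 3231 bases, beside 22085 bases over all genes tested. Of these 43 genes 81.4% spanned under 10 kb and 0% over 100 kb. The 129 genes at least 2-fold higher had a median span of 20340 bases, and 31.8% spanned under 10 kb. The full set of 1864 lower genes, in contrast, was long, with a median of 33773 bases and 26.4% over 100 kb, beside 13.6% of all genes tested.

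Across genes of rising span, the share called lower was 12.9% under 10 kb, 12.4% from 10 to 30 kb, 16.0% from 30 to 100 kb, 28.7% from 100 to 300 kb and 38.3% over 300 kb. The share called higher was 19.1%, 21.4%, 22.4%, 14.2% and 6.19% in the same bins. Without the genes of the synapse, channel and neuron marker lists, an alternative added after seeing the data, the share called lower was still 35.2% over 300 kb and 12.3% under 10 kb. So the steep falls concern short genes, and the shallow falls concern long genes more often.

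**Figure D4:**
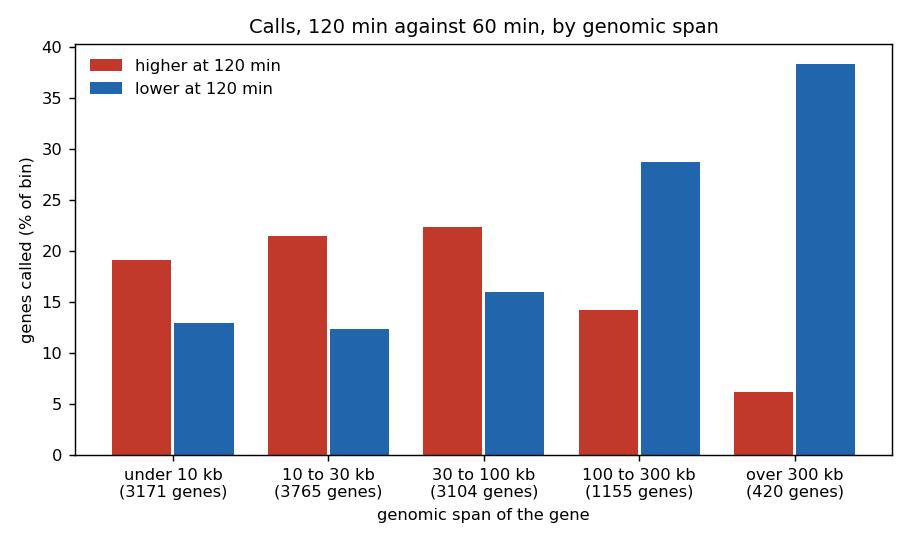
Share of genes called higher (red) and lower (blue) at 120 min than at 60 min (vertical axis, % of the genes in the bin, from 0) by genomic span (horizontal axis, with the number of genes per bin). Lower genes make up 38.3% of the genes over 300 kb and 12.9% of those under 10 kb.

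The sequence before the start of the gene was looked up in RefSeq promoters of assembly GRCr8, which hold an entry for 9425 of the 11615 genes, for 106 of the 129 genes at least 2-fold higher and for 37 of the 43 at least 2-fold lower. Motifs were searched on both strands of the 250 bases before the start, each on its own, so that matches may overlap. The CRE was written as TGACGTCA, AP-1 as TGANTCA, the TATA box as TATAAA, STAT as TTCNNNGAA and the interferon-stimulated element as a pair of GAAA with any 2 bases between, while the serum response element was the CArG box and the NF-kB motif the kB consensus. A TATA box was found in 7.55% of the 2-fold higher genes, 27.0% of the 2-fold lower genes and 6.26% of all genes with a promoter. The CRE was found in 0.94% of the 2-fold higher, 13.5% of the 2-fold lower and 2.99% of all, and the serum response element in 0.94%, 10.8% and 1.06% of the same sets.

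AP-1 and the interferon-stimulated element went the other way. AP-1 was found in 15.1% of the 2-fold higher genes, 2.70% of the 2-fold lower genes and 4.4% of all, and the interferon-stimulated element in 8.49%, 0% and 2.60% of these sets. The NF-kB motif was found in 14.2% of the 2-fold higher, 21.6% of the 2-fold lower and 8.29% of all, and STAT in 11.3%, 16.2% and 5.99%. Over all called genes the shares lay nearer to those of all promoters than in the 2-fold sets. AP-1, for example, was found in 5.95% of the 1916 higher genes and 4.02% of the 1467 lower genes with an entry. Of 4 further motifs searched, the short CRE core TGACG was found in 20.8% of the 2-fold higher, 45.9% of the 2-fold lower and 28.4% of all promoters, the E-box CACGTG in 2.83%, 16.2% and 8.06%, the EGR motif GCGGGGGCG in 10.4%, 18.9% and 4.72%, and the heat shock element in 0%, 0% and 0.37%. Over all called genes the EGR motif was found in 5.38% of higher and 7.09% of lower promoters, and TGACG in 29.8% and 24.3%. With 37 promoters in the 2-fold lower set, each stands for 2.7 percentage points. A match describes these letters only and does not show that a factor binds there. The promoters printed above for Btg2, Zfp36, Nfkbia and Ppp1r15a, and for Itga5, Gbp2, Emp1 and Il11, are examples of the 2 sets.

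**Figure D5:**
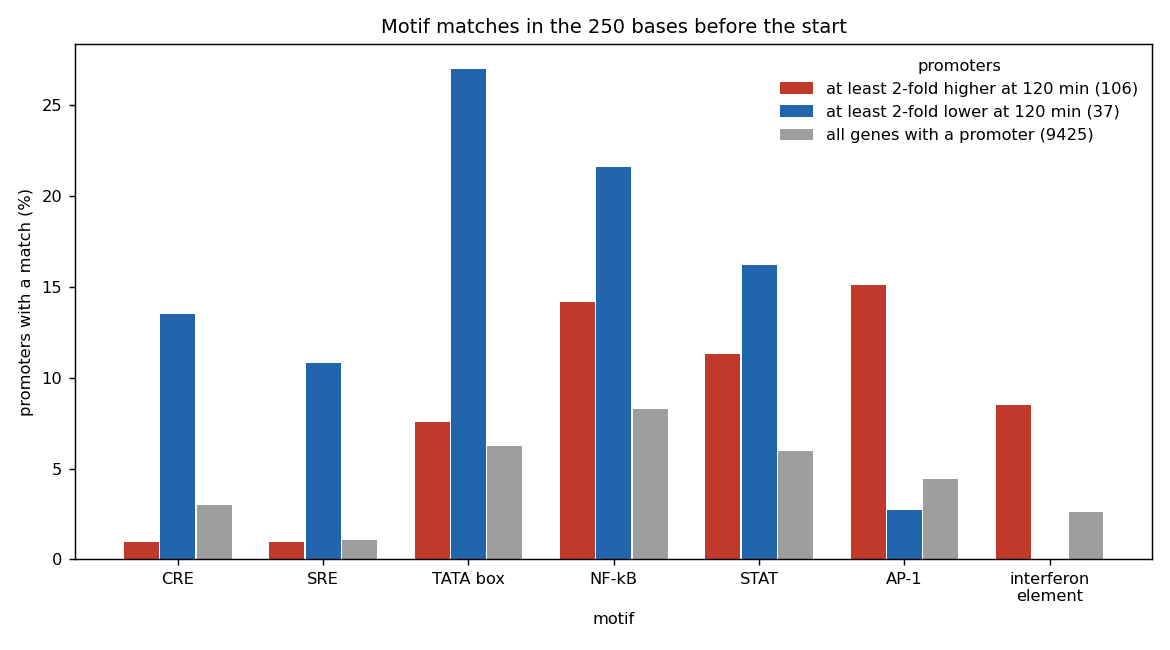
Share of promoters with a match (vertical axis, %, from 0) to each of 7 motifs (horizontal axis) in the 250 bases before the start, for genes at least 2-fold higher at 120 min (red, 106 promoters), at least 2-fold lower (blue, 37) and all genes with a promoter (grey, 9425). The CRE, serum response element and TATA box match a larger share of the lower set than of the other sets, and so do NF-kB and STAT, while AP-1 and the interferon-stimulated element match a larger share of the higher set.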

How the data were processed

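Poly(A) RNA after ribosomal depletion was sequenced from 10 libraries. The authors deposited 1 table of CPM (read counts scaled to library depth) per gene and library, already normalized for depth; per the submitters' processing notes, bcl2fastq, TopHat2 2.1.0, HTSeq, edgeR and the rat build rn6 were used, while no source used here names the annotation or the strand setting, so reads of overlapping and antisense genes may be mixed. The table's 6 repeated mock columns were not used, and 22 rows carry a spreadsheet serial number in place of a symbol and were tested but not named.

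The CPM were rescaled with TMM factors (30% and 5% trims), put on the log2(CPM + 1) scale and fitted with limma 3.58.1 in R 4.3.3, with a trend, 1 mean per group and 5 residual degrees of freedom over all 10 libraries. P-values were adjusted over 11615 genes by the Benjamini-Hochberg method, and genes were called at an adjusted p under 0.05. The code was tested on simulated data. Figures were drawn with matplotlib 3.10.9.

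Named genes were the 30 largest rises and 30 largest falls that were called, averaged 2 or more on the log2(CPM + 1) scale and had groups that did not overlap, the 10 largest CPM gains and losses, up to 4 called members per list and direction by smallest p (2 where none was called), and 8 fixed genes. Members and lists were chosen with earlier results of these data known. Of 1179 entries in 39 lists, 1066 matched a row, 3 of them through a synonym. Coordinates of genes are those of the table (rn6), and those of promoters are GRCr8. Alternatives were other scalings, pseudocounts, filters, thresholds, subsets of libraries, a replicate block, array weights, limma-voom and leaving out each library.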

Additional observations from a re-analysis of the deposited data

How the results depend on the processing

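Over 23 alternatives and 258 named genes, 5748 of 5926 combinations kept their direction and their call, 178 kept the direction and lost the call, and 0 reversed. With an adjusted p under 0.01 the count of lower genes was 1006, and with a pseudocount of 5 the count of genes at least 2-fold higher was 75, since a larger pseudocount shrinks the change of low genes. Leaving out 1 library at a time gave 1597 to 2431 higher and 1095 to 2154 lower genes, with the lowest counts without 120 min replicate 2, and 124 to 130 and 42 to 46 genes past 2-fold. Where this left 1 library in a group, that library was assumed to vary like the other groups. Libraries with the same replicate number shared little deviation (r = -0.013 between 60 and 120 min, and between -0.16 and 0.27 over all pairs of groups). These correlations cannot show whether the repeats were separate culture preparations. A fit with a replicate block gave 2289 higher and 1823 lower genes. The steps between values turned 100% of them into whole reads (within 0.01) in every library. The planned count tests with edgeR and DESeq2 were not run on those reads, while limma-voom, run on them, gave 2295 higher and 1823 lower genes. The lowest deposited values stand for 9 to 20 reads in a library, so genes below that depth were not analysed here, and 2 libraries per group limit the precision of each value.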
